A study of Mus musculus with 49 samples.

Results

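The cells of the spleen that a magnet held after a dose of iron oxide nanoparticles were compared with the nanoparticle-associated cells of the liver, the mammary tumor and the bone marrow of the same mice. The 3 spleen libraries and the 9 libraries of the other organs were taken by their labels, 12 of the 49 RNA-seq libraries of the series, and no measured value of these files entered the rule. All 12 came from 3 HuHER2 mice, which carry a human HER2 transgene and had developed palpable mammary tumors. Each mouse had received 1 intravenous dose of BP, the iron oxide nanoparticle of the study, at 5 mg Fe. The design text places the collection of organs 7 days after the dose, and a treatment protocol that all samples share names 31 days for a subset of animals. Palpation for tumors began at an age of 7 months. Each organ was cut into equal sections: RNA of the first was extracted whole, and this is called bulk tissue here. The other section was digested to single cells and passed over a magnet, and the cells the magnet held are the nanoparticle-associated (NA) cells. No cell type was sorted, so an NA library is a mixture of whatever cells the magnet held, by uptake, by surface binding or by carry-over, which the data do not separate. The promoter that drives the transgene was not given in the sources used here. The series holds no NA library of PBS mice, so cells that a magnet holds without nanoparticles were not measured. Every difference given is one between organs, or between NA cells and bulk tissue, not between treatments. The mice are numbered 1, 2 and 3 here, and the same number in 2 organs is the same animal.

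The spleen filters blood. Its red pulp holds macrophages that clear aged red blood cells and recycle their iron, a fate kept by the transcription factor SpiC. Its white pulp is lymphoid tissue, with B cell follicles and T cell zones that stromal chemokines lay out, and between both lies the marginal zone, where specialised B cells and macrophages meet blood-borne particles first. Liver particle clearance belongs mainly to Kupffer cells and the sinusoidal endothelium, and the bone marrow adds macrophages beside developing red cells, granulocytes and B cells. Mice also form red cells in the splenic red pulp when demand is high.

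The 12 libraries held between 10410280 and 19221343 expected counts, and the spleen libraries between 11348179 and 14453251. A gene without a count in a library may still have had a level worth 3 counts, or 0.149 to 0.211 CPM in the spleen libraries, 0.333 to 0.665 in liver, 0.138 to 0.162 in tumor and 0.179 to 0.242 in marrow on the scale used here, for counting error only. CPM relates a gene's counts to the size of its library, and gene values are on edgeR's TMM scale, which sets each library against the others by the bulk of its genes. Between 19950 and 21213 genes had a count in the spleen libraries. Genes of the mitochondrial genome took 48.2% to 57.2% of the counts in liver NA cells and 2.99% to 3.32% in spleen NA cells, so the liver libraries were shallower in all other genes. With these genes left out before scaling, 934 of the 942 genes called higher in spleen than in each organ were called again. The tumor NA libraries were epithelial: Krt8, a keratin of simple epithelia, measured 3232, 3179 and 2566 CPM there and 5.54, 5.13 and 4.36 CPM in spleen. Low values of immune genes in the tumor libraries stand beside these epithelial ones, and a fold change against tumor often rests on a tumor value near 0. In mixtures like these, fewer cells of a type and less RNA per cell cannot be told apart.

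Spleen NA cells differed from those of each other organ in a large share of genes, with the fewest calls against bone marrow. Of 16655 genes tested, 4834 (29.0%) were higher and 4720 (28.3%) lower in spleen than in liver at an adjusted p under 0.05 in edgeR's quasi-likelihood test with the mouse as block. Against tumor, 5324 (32.0%) were higher and 5110 (30.7%) lower. Against bone marrow, 3087 (18.5%) were higher and 2376 (14.3%) lower. Counts of list members in the paragraphs below are to be read beside these shares of all tested genes. The rank correlation across genes of a spleen NA library with a bone marrow NA library had a median of 0.921 over 9 pairs, against 0.791 with liver and 0.730 with tumor. Between spleen NA libraries it was 0.973, and with bulk spleen of the same mice 0.929 over 9 pairs. These correlations are across genes, share libraries and carry no test.

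A smaller set of genes set the spleen apart from all 3 organs. There were 942 genes (5.66%) higher and 538 (3.23%) lower in spleen than in each of liver, tumor and bone marrow. For 902 of the 942 the 3 spleen values lay above all 9 others, and for 513 of the 538 below all 9. In 128 of the 942, at least 1 other organ had 3 counts or fewer over its 3 libraries together. Over all tested genes, 1516 (9.10%) had their 3 spleen values above and 880 (5.28%) below the 9 others. The contrast of spleen with the equally weighted mean of the 3 organs called more genes, 4693 (28.2%) higher and 3919 (23.5%) lower. That mean can rest on 1 organ: 20.1% of its higher genes and 13.7% of its lower genes were called against each organ, and 584 of the higher genes were called lower than at least 1 of the 3. The 9 other libraries set as 1 group, with the spread between organs counted as error, gave 164 higher and 46 lower. Without mouse 3, 2749 genes were higher than the mean and 3092 higher than liver. The genes called against each organ also depended on single mice, with 348 higher and 236 lower without mouse 3 and 488 and 250 without mouse 1. Leaving out 1 library took the lower genes to 336 without the spleen library of mouse 1, 320 without that of mouse 3 and 339 without the marrow library of mouse 2. The higher genes went to 607 without the spleen library of mouse 3. Against marrow alone, 1749 genes were higher and 1152 lower without mouse 1, and 1323 and 1049 without mouse 3. There were 2044 higher than marrow without the marrow library of mouse 3. Without the spleen library of mouse 1 or 3, or the marrow library of mouse 2, 1495, 1436 and 1545 were lower than marrow.

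**Figure D1:**
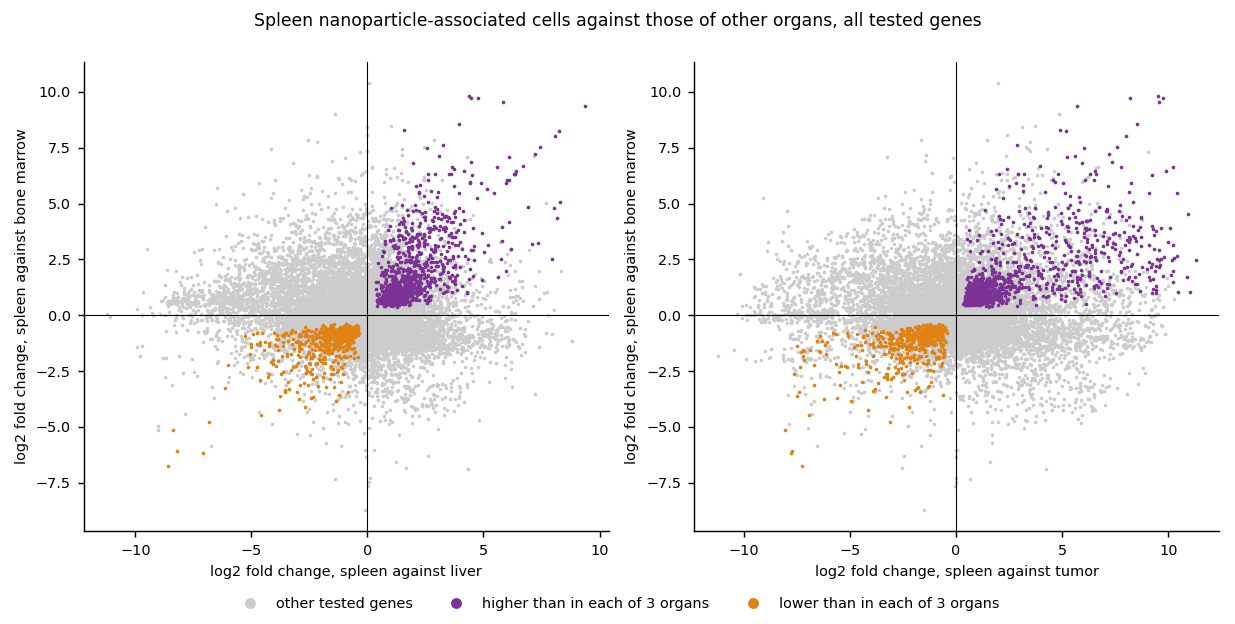
Log2 fold changes of all tested genes, spleen NA cells against liver (left) or tumor (right) on the horizontal axis and against bone marrow on the vertical axis, with each point 1 gene. The 942 genes higher in spleen than in each organ sit at the upper right and the 538 lower than each at the lower left, and most genes lie elsewhere.

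Genes of mature B cells were higher in spleen than in the other organs. Of 15 genes of mature B cells, 15 were higher than in liver, 15 than in tumor and 14 than in bone marrow, and 14 were higher than in each, with none lower. The median log2 difference was 3.75 against liver, 9.23 against tumor and 3.27 against marrow, where the medians of all tested genes were 0.10, 0.06 and 0.04. Among all tested genes, 29.0%, 32.0% and 18.5% were higher in these 3 comparisons and 5.66% in all of them. Cd79a, a signalling chain of the B cell receptor (ENSMUSG00000003379, plus strand of chromosome 7, bases 24897381 to 24902197 of mm10), measured 501, 406 and 418 CPM in the spleen NA cells of mice 1, 2 and 3. It measured 21.4, 43.2 and 21.7 CPM in liver, 0.644, 0.703 and 1.06 in tumor and 77.7, 28.3 and 47.3 in bone marrow. The spleen values did not overlap with any other organ's. The log2 difference was 3.92 ± 0.41 (SE) against liver, 9.07 ± 0.53 against tumor and 3.13 ± 0.39 against marrow, with adjusted p values of 2.1e-05, 1.95e-07 and 0.000196. Fcer2a, the low-affinity IgE receptor of follicular B cells, measured 33.6, 39.3 and 47.3 CPM in spleen against 6.77, 16 and 11.5 in liver and 4.54, 3.5 and 3.06 in marrow. Ighd, the constant region of IgD on mature naive B cells, measured 255, 211 and 243 CPM in spleen, 20.4, 40.8 and 21 in liver and 23.3, 9.62 and 11.8 in marrow. The member that did not pass against marrow was Ighm, the IgM heavy chain, at 5465, 2815 and 3566 CPM in spleen and 3482, 4381 and 4385 in marrow, a log2 difference of −0.05 ± 0.30 with an adjusted p of 0.924.

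Of 10 genes of B cell precursors, 5 were lower and 2 higher in spleen than in marrow. Rag1, the recombinase subunit that cuts antigen receptor genes, measured 0.495, 0.0702 and 0.105 CPM in spleen and 49, 8.38 and 11 in marrow, a log2 difference of −6.55 ± 0.54 (adjusted p = 1.85e-05). Vpreb1, part of the surrogate light chain of pre-B cells, had 3 counts in the 3 spleen libraries together and measured 13.6, 5.83 and 11 CPM in marrow. Marrow was thus higher in both precursor genes, and spleen in Cd79a. Of 12 plasma cell genes, 3 were higher than in marrow and none lower, and Jchain, which joins IgM and IgA into polymers, measured 472, 209 and 340.0 CPM in spleen and 217, 205 and 231 in marrow (adjusted p = 0.12). Immunoglobulin segments were tested one by one, 140 of them, and 122 were higher than in liver, 139 than in tumor and 38 than in marrow, with 9 lower than in marrow. Reads of such segments can be split among near-identical copies, so single segments are not named.

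Marginal zone B cell genes were higher in spleen in most cases. Of 9 listed genes, 6 were higher than in liver, 6 than in tumor and 8 than in marrow, and 6 than in each, with 1 lower than in liver and 2 lower than in tumor. Cr2, which encodes the complement receptors CD21 and CD35 (ENSMUSG00000026616, minus strand of chromosome 1, bases 195136811 to 195176716 of mm10), measured 143, 134 and 169 CPM in spleen. It measured 4.55, 8.36 and 6.2 CPM in liver, 0.322, 0 and 0.368 in tumor and 2.57, 1.24 and 1.77 in marrow. Every spleen value lay above all 9 others, and the log2 differences were 4.53 ± 0.41, 9.24 ± 0.53 and 6.30 ± 0.44. The member lower than in liver was Cd1d1, which presents lipids to T cells. It measured 14.6, 18.8 and 20.9 CPM in spleen and 64.7, 172 and 114 in liver, a log2 difference of −2.64 ± 0.28 (adjusted p = 2.58e-05).

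Genes of antigen presentation by MHC class II were higher in spleen than in each organ. All 12 listed genes were higher in spleen than in liver, than in tumor and than in marrow, with median log2 differences of 1.83, 4.77 and 3.77. H2-Aa, the alpha chain of the I-A molecule, measured 1210.0, 887 and 1075 CPM in spleen. It measured 420.5, 338 and 214 CPM in liver, 59.7, 61.3 and 39.9 in tumor and 55, 37.4 and 48.1 in marrow, and the spleen range lay above all of these. Its log2 difference was 1.74 ± 0.23 against liver, 4.31 ± 0.26 against tumor and 4.50 ± 0.26 against marrow. H2-Ob, a chain of the class II modulator H2-O of B cells, measured 166, 139.6 and 157 CPM in spleen against at most 30.2 CPM in the other organs. Of the 12, the smallest difference from liver was that of H2-DMa, the peptide exchange factor, at 71.4, 63.5 and 77 CPM in spleen and 61.3, 46.6 and 34.1 in liver (log2 difference 0.60 ± 0.20, adjusted p = 0.0257). The ranges of H2-DMa did not overlap, but its call was lost without the liver library of mouse 2 or 3, the spleen library of mouse 3 or the 4 libraries of mouse 2 or 3 (adjusted p from 0.0513 to 0.352). Ciita, the master activator of class II genes, measured 48.6, 24.6 and 48.9 CPM in spleen and 30.6, 16.4 and 16.8 in liver, and the ranges overlapped. Its call against liver (adjusted p = 0.0251) was lost without the liver library of mouse 1, 2 or 3, the spleen library of mouse 3 or the 4 libraries of mouse 3 (adjusted p from 0.0525 to 0.272), and without the mouse as block (adjusted p = 0.0657). The co-stimulatory receptor gene Cd86 measured 344, 240.1 and 268 CPM in spleen and no more than 33.9 CPM elsewhere, with log2 differences of 3.40 ± 0.21, 5.64 ± 0.23 and 3.91 ± 0.21.

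Class II genes are known to share promoter elements, among them an inverted CCAAT element called the Y box, and since these genes moved together their promoters are shown. RefSeq promoters (build GRCm38.p6) were at hand for 8 of the 12 listed genes. The motif GATTGG or its reverse complement CCAATC lay on either strand within the 150 bases upstream of the start in 6 of these 8, and in 10.9% of all 32851 promoters of that length. The 6 of 8 counts genes, while the 10.9% counts promoter entries, of which a gene can have several. Without the motif were H2-DMa, in both of its entries, and Cd80, a co-stimulatory gene on the list. The 4 printed here were taken from those with the motif. A match is a description of the letters, not a measured binding site. Capitals mark the motif in the 4 printed here, each from 5′ to 3′ on the gene's own strand and ending at the base before the start. They are H2-Aa at chr17:34287824-34287973 on the minus strand, H2-Eb1 at chr17:34305717-34305866, H2-Oa at chr17:34092229-34092378 and H2-Ob at chr17:34238755-34238904, these 3 on the plus strand. The motif's first base lay 49, 60, 44 and 58 bases upstream of the start in H2-Aa, H2-Eb1, H2-Oa and H2-Ob, and H2-Eb1 held 2 matches, 1 on each strand.
H2-Aa: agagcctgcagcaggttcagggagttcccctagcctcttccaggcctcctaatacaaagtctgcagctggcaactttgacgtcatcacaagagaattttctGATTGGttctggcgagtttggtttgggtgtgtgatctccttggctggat
H2-Eb1: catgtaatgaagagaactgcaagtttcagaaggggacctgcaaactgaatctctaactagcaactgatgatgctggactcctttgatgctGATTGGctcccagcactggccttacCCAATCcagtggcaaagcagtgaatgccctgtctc
H2-Oa: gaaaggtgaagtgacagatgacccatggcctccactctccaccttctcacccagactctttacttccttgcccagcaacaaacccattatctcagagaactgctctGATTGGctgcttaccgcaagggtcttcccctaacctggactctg
H2-Ob: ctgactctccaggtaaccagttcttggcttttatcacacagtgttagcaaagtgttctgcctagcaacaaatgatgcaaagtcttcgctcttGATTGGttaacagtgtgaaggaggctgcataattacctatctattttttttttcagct

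**Figure D2:**
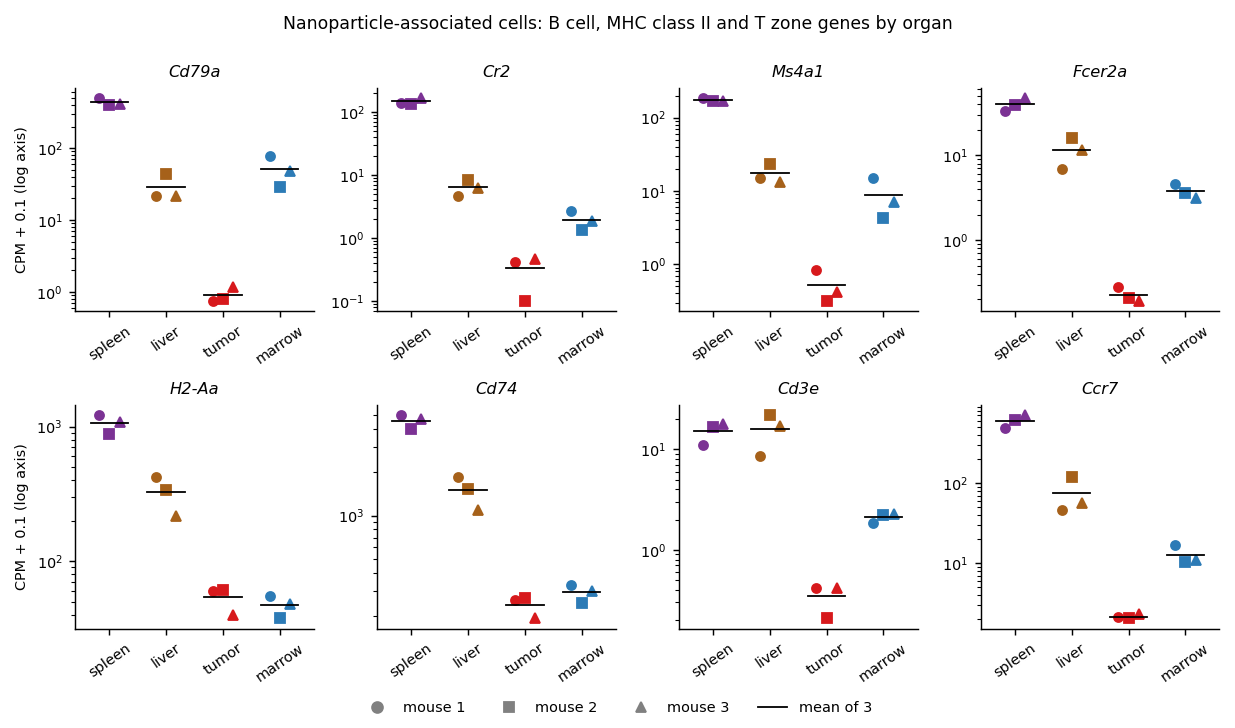
CPM plus 0.1 on a log axis for 8 lymphoid genes in NA cells of spleen, liver, tumor and marrow, with 1 symbol per mouse and a line at the mean of the 3. For Cd79a, Cr2, H2-Aa and Ccr7 the 3 spleen symbols stand above all others, and for Cd3e spleen and liver overlap.

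T cell genes were higher in spleen than in tumor and marrow, and some of them than in liver. All 17 listed genes were higher than in tumor and 15 than in marrow, while 8 were higher and 1 lower than in liver. Cd3e, a chain of the T cell receptor complex, measured 11, 16.6 and 17.8 CPM in spleen, 8.55, 21.7 and 17.1 in liver, 0.322, 0.108 and 0.322 in tumor and 1.73, 2.11 and 2.17 in marrow. Spleen and liver overlapped for Cd3e, with a log2 difference of −0.02 ± 0.30 (adjusted p = 0.961), and the difference from marrow was 2.88 ± 0.33. Cd4, the co-receptor of helper T cells that some macrophages and dendritic cells also carry, measured 48.3, 38.5 and 52.4 CPM in spleen and 13, 23.8 and 11.1 in liver. Foxp3, the factor of regulatory T cells, measured 8.31, 7.58 and 8.61 CPM in spleen and 0.444, 1.34 and 1.33 in liver, and was higher than in each organ, by 3.14 ± 0.52, 6.19 ± 0.60 and 3.43 ± 0.49. Of 11 tested genes of natural killer and cytotoxic cells, 6 were lower and 1 higher than in liver, and 7 were higher than in marrow.

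Genes of dendritic cells were mixed in the same way. Of 6 tested genes of migratory and activated dendritic cells, 4 were higher than in each organ. Ccr7, the receptor that brings dendritic cells and lymphocytes to the T zone, measured 483, 609 and 701 CPM in spleen against 46.6, 120.5 and 56.9 in liver and 16.8, 10.2 and 10.8 in marrow. Its log2 differences were 3.04 ± 0.35 from liver and 5.54 ± 0.39 from marrow. Scaled over 24 libraries, mean Ccr7 was 647 CPM in spleen NA cells and 74.1 in bulk spleen. These means were 81.3 and 1.16 CPM for liver, 2.18 and 1.19 for tumor and 13.7 and 6.99 for marrow. Fscn1, an actin bundler of mature dendritic cells that other cells share, went the other way against liver, at 26.7, 15.2 and 27.7 CPM in spleen and 115, 86 and 121 in liver. Of 9 genes of type 1 conventional dendritic cells, 2 were higher and 4 lower than in liver, and 9 were higher than in marrow. Clec9a, their receptor for dead cells, measured 2.92, 4.63 and 4.67 CPM in spleen, 12, 13.1 and 13.5 in liver and 0.598, 0.947 and 0.805 in marrow. Of 10 genes of type 2 conventional dendritic cells, 5 were higher and 4 lower than in liver. Cd209a, a lectin of these cells, measured 4.26, 3.44 and 3.94 CPM in spleen and 3.66, 4.33 and 4.43 in liver, with overlap (adjusted p = 0.878).

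The 12 genes chosen by size among those higher than the mean of the 3 organs had, by the choice, all 3 spleen values above the 9 others. From the largest difference down they included Coch, Il9r, Cr2, Cxcr5, Ccr6, Blk, Ccr7, Cacna1e, Fam167a, Irf4 and Ms4a1. Their log2 differences ran from 7.91 down to 5.48, and each was called higher than in liver, tumor and marrow alike. Coch, the gene at 7.91, had 24 counts in the 3 liver libraries together and passed the low-count filter through the spleen libraries alone. Its calls are therefore a description. Cxcr5, Blk and Ms4a1 are on the list of mature B cell genes. Coch, a secreted protein first known from the inner ear, measured 43.2, 7.23 and 42.7 CPM in spleen and 0.888, 1.2 and 1.77 in liver, while it had 2 counts in the 3 tumor libraries and 1 count in the 3 marrow libraries. The spleen cells of mouse 2 held less Coch than those of mice 1 and 3 but still more than any other library, which the choice of the 12 required. Il9r, the receptor of interleukin 9, measured 55.5, 32.1 and 28.4 CPM in spleen, 1.22, 2.99 and 2.21 in liver and 0.598, 0.510 and 0.161 in marrow. Cxcr5, the chemokine receptor that leads B cells to follicles, measured 234, 152 and 169 CPM in spleen and no more than 22.2 CPM elsewhere. Irf4, a transcription factor of activated lymphocytes and dendritic cells, measured 539.5, 429.6 and 491 CPM in spleen and 17.9, 87.5 and 44.1 in liver. Scaled over 24 libraries, mean Irf4 was 527 CPM in spleen NA cells and 54.6 in bulk spleen. These means were 54.2 and 0.668 CPM for liver, 0.770 and 2.14 for tumor and 39.7 and 31.8 for marrow. Fam167a, which lies beside Blk on chromosome 14, measured 102.7, 59.9 and 75.7 CPM in spleen and 9.43, 3.58 and 5.32 in liver. The annotated spans of both genes do not overlap in mm10: Blk runs from base 63372836 to 63417037 and Fam167a from 63436394 to 63465498.

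Genes of lymphoid stroma were measured at low counts in spleen, where several were higher and some lower than in other organs. Of 13 tested stromal genes, 10 were higher and 2 lower than in tumor, and 8 higher and 2 lower than in marrow. Against liver, 5 were higher and 3 lower. There were 4 higher than in each organ and 1 lower than in each. The summed CPM of the 14 listed genes was 34.3 to 73.7 in spleen and 1878 to 1958 in liver. Tlx1, the homeobox factor that spleen formation needs, measured 1.58, 0.281 and 2.99 CPM in spleen, 93 counts in all, and had no count in any of the 9 other libraries. It passed the low-count filter through the spleen libraries alone, so no test of it is given, and counts of stromal genes that passed are a description. Cxcl13, the stromal chemokine that draws Cxcr5-bearing B cells, measured 12.3, 8.57 and 15.1 CPM in spleen, 2.44, 0.448 and 1.99 in liver, 0, 0.216 and 0.138 in tumor and 0.120, 0.0729 and 0.242 in marrow. The spleen values stood clear of the others, with log2 differences of 2.89 ± 0.54, 6.60 ± 0.67 and 6.34 ± 0.68. Ccl21a, a T zone chemokine, measured 9.6, 2.81 and 10.4 CPM in spleen and 4.44, 19.3 and 2.88 in liver, and these overlapped. Ccl21a has near-identical copies in the mouse genome, so its counts are uncertain. Ltbr, the lymphotoxin beta receptor, was the member lower than in each organ, at 12.5, 6.25 and 7.46 CPM in spleen, 68.4, 53 and 67.3 in liver, 58.9, 48.7 and 63.8 in tumor and 24.2, 23.5 and 24.7 in marrow.

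Macrophage genes, in contrast, did not set the spleen apart as a group. Of 15 genes of red pulp macrophages, 2 were higher and 8 lower in spleen than in liver, 11 were higher and 1 lower than in tumor, and 7 were higher and 3 lower than in marrow. The 2 members higher than in each organ were Spic and Itgad. Spic, the transcription factor of red pulp macrophages, measured 48.4, 13.8 and 36 CPM in spleen, 12.5, 8.06 and 5.09 in liver, 0.138, 0.270 and 0.138 in tumor and 5.62, 2.11 and 3.71 in marrow. Every spleen value was above every other, although that of mouse 2 was close to the highest liver value, and the log2 differences were 1.83 ± 0.37, 7.37 ± 0.52 and 3.07 ± 0.38. The call of Spic against liver (adjusted p = 0.00169) was lost without the 4 libraries of mouse 3 (adjusted p = 0.0509). Itgad, the integrin alpha D chain, measured 30.8, 13.2 and 20.3 CPM in spleen, 2.22, 1.64 and 2.44 in liver and 12, 7.65 and 10.2 in marrow. Its difference from marrow, 1.06 ± 0.22, was lost without the 4 libraries of mouse 1 or 3 (adjusted p from 0.0752 to 0.0761). Vcam1, an adhesion molecule of red pulp macrophages and endothelium, measured 266, 78 and 182 CPM in spleen, 284, 174 and 207 in liver and 146, 124 and 123 in marrow, and passed against tumor alone.

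Most Kupffer cell genes were lower in spleen than in liver. Of 11 listed genes, 7 were lower and 1 higher in spleen than in liver. Clec4f, a lectin of Kupffer cells, measured 0.0990, 0.983 and 0.630 CPM in spleen and 846, 297 and 218 in liver, a log2 difference of −9.67 ± 0.96 (adjusted p = 1.53e-05). Vsig4, a complement receptor of tissue macrophages, measured 1.09, 1.19 and 0.525 CPM in spleen and 175, 64.2 and 51 in liver. Timd4, a phosphatidylserine receptor of several resident macrophages, overlapped between spleen and liver, at 42.2, 13 and 36.8 CPM in spleen and 59.4, 23.9 and 37 in liver (adjusted p = 0.373). Of 6 genes of marginal zone macrophages, 4 were higher than in tumor and 4 than in marrow, and 2 were lower than in liver. Marco, their scavenger receptor, measured 114, 41.5 and 98.2 CPM in spleen and 203, 72 and 59.8 in liver, against 0.276, 0.108 and 0.0919 in tumor and 1.02, 0.0729 and 0.564 in marrow. Spleen and liver overlapped for Marco (log2 difference −0.33 ± 0.31, adjusted p = 0.388) and both stood above tumor and marrow. Siglec1, which binds sialic acid on particles and cells, measured 23.4, 8.01 and 23.2 CPM in spleen and 5.62, 3.5 and 3.14 in marrow, and its call against marrow was lost without the marrow library of mouse 1 or 3, the spleen library of mouse 3 or the 4 libraries of mouse 3 (adjusted p from 0.0553 to 0.193).

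None of the 18 genes shared by most macrophages was higher in spleen than in liver, 11 were lower, 10 were higher than in tumor, and 4 were higher and 3 lower than in marrow. C1qa, a chain of the complement starter C1q, measured 56.5, 24.6 and 41.4 CPM in spleen, 298, 117 and 133 in liver, 41.5, 38.4 and 31.6 in tumor and 23.3, 21.4 and 27.3 in marrow. Spleen was lower than liver by 2.13 on the log2 scale (adjusted p = 0.000116), and it overlapped with tumor and with marrow, where neither difference passed. Csf1r, the receptor of macrophage colony-stimulating factor, measured 265, 104.7 and 179 CPM in spleen, 382, 157 and 194 in liver and 100.3, 79.8 and 73.7 in marrow. It overlapped with liver (adjusted p = 0.159), and its call against marrow (1.03 ± 0.24) was lost without the marrow library of mouse 3 or the 4 libraries of mouse 3 (adjusted p from 0.0557 to 0.138). Of 13 monocyte genes, 6 were higher than in liver, 10 than in tumor and 2 than in marrow, with 6 lower than in marrow. Ly6c2, the surface marker of classical monocytes, measured 107, 58 and 51.4 CPM in spleen, 13.3, 33.9 and 13.5 in liver and 449.5, 435 and 449.5 in marrow.

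**Figure D3:**
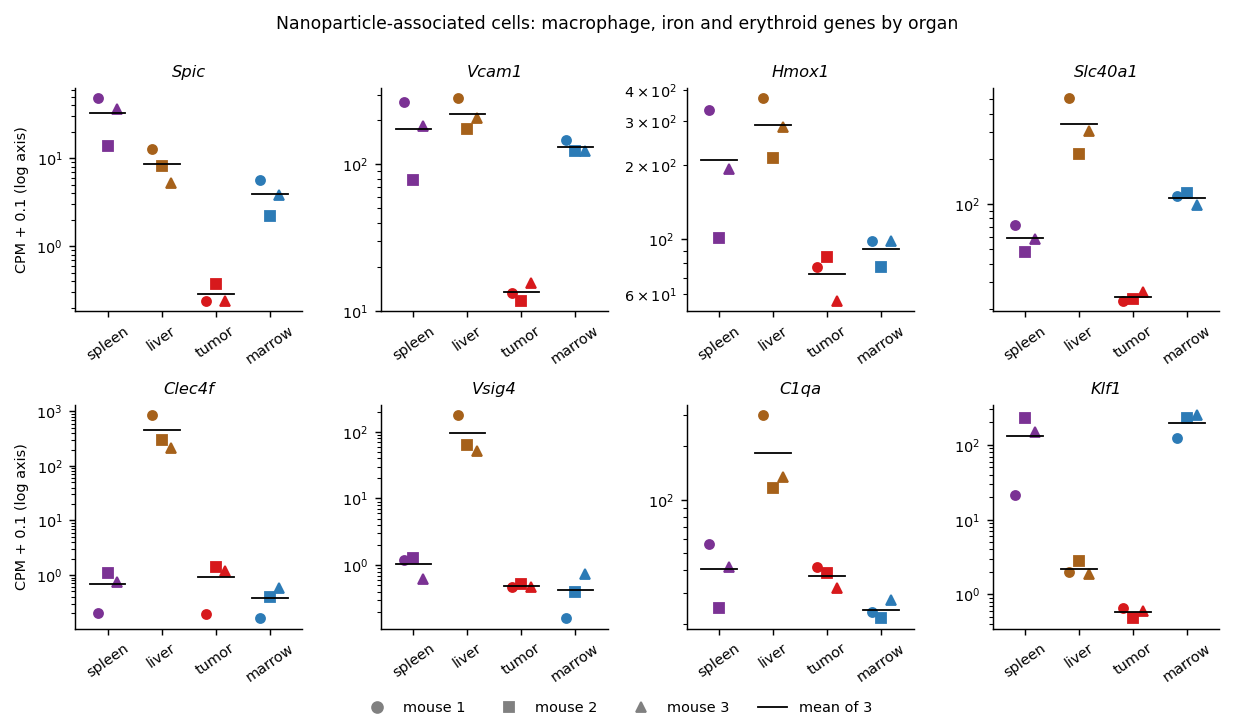
CPM plus 0.1 on a log axis for 7 macrophage and iron genes and the erythroid gene Klf1 in NA cells of the 4 organs, with 1 symbol per mouse and a line at the mean of the 3. Spic is highest in spleen, Clec4f and Vsig4 stand far higher in liver, and for Klf1 the spleen spans 21.2 to 229 CPM.

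Genes of iron handling went in both directions. Of 19 tested genes, 8 were higher and 8 lower than in liver, 8 higher and 4 lower than in tumor, and 2 higher and 2 lower than in marrow. Among all tested genes, 29.0% were higher and 28.3% lower than in liver, 32.0% and 30.7% for tumor, and 18.5% and 14.3% for marrow. Slc40a1, which encodes the iron exporter ferroportin, measured 72, 47.5 and 58.2 CPM in spleen, 508, 215 and 305 in liver, 22.4, 23.1 and 25.8 in tumor and 112, 117 and 97.7 in marrow. Spleen values were below all liver and all marrow values and above all tumor values. The log2 difference was −2.50 ± 0.25 against liver, 1.28 ± 0.24 against tumor and −0.91 ± 0.24 against marrow, and the last was lost without the marrow library of mouse 2, the spleen library of mouse 3 or the 4 libraries of mouse 2 or 3 (adjusted p from 0.0526 to 0.0893). Fth1, the ferritin heavy chain, measured 2022, 2156 and 2281 CPM in spleen, 1501, 1516 and 1091 in liver and 1063, 1452 and 1655 in marrow. All 3 spleen values of Fth1 exceeded the 9 others, but only the difference from tumor passed (1.55 ± 0.40, adjusted p = 0.00616). Ftl1, the ferritin light chain, measured 2166, 1955 and 2243 CPM in spleen and 5189, 4322 and 4387 in liver, lower in spleen by 1.13. Slc11a1, the phagosomal metal transporter NRAMP1, measured 70.9, 33.7 and 44.3 CPM in spleen, 99, 61.7 and 45 in liver and 52.1, 39.9 and 46.1 in marrow, with overlap and no call against either.

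Heme genes likewise gave no common direction, with 3 of 14 higher and 5 lower than in liver, 4 and 4 against tumor, and 2 and 2 against marrow. For all tested genes the shares higher and lower were 29.0% and 28.3%, 32.0% and 30.7%, and 18.5% and 14.3%, in the same order. Hmox1, the heme oxygenase that opens the heme ring, measured 334, 101.1 and 193 CPM in spleen, 373, 213 and 286 in liver, 77.3, 84.5 and 56.4 in tumor and 98.8, 77.5 and 98.9 in marrow. Spleen and liver overlapped (log2 difference −0.54 ± 0.30, adjusted p = 0.143), while the spleen values lay above all 6 of tumor and marrow. The difference from tumor was 1.40 ± 0.30, lost without the 4 libraries of mouse 3 (adjusted p = 0.0596). The difference from marrow was 1.09 ± 0.30 and was lost without the marrow library of mouse 1, 2 or 3, the spleen library of mouse 1 or 3 or the 4 libraries of mouse 1 or 3 (adjusted p from 0.0502 to 0.17). Blvrb, a biliverdin reductase that red cell precursors hold in large amounts, measured 49.1, 300.3 and 213 CPM in spleen, 111, 99.5 and 93.7 in liver and 180.0, 284 and 348 in marrow, and did not pass against liver or marrow.

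Receptors for particle uptake were mostly lower than in liver and higher than in tumor. Of 24 listed receptors, 17 were lower and 3 higher than in liver, 16 higher and 4 lower than in tumor, and 8 higher and 4 lower than in marrow. Stab1, a scavenger receptor of sinusoidal endothelium and macrophages, measured 27.9, 13.3 and 19.4 CPM in spleen and 1598, 1160.0 and 1754 in liver, lower in spleen by 6.23. Cd36, a scavenger receptor and fatty acid transporter, measured 182, 164 and 159.7 CPM in spleen, 394, 298 and 355 in liver, 11.6, 4.75 and 11.1 in tumor and 69.4, 78.3 and 84.3 in marrow. Spleen was below liver and above the others for Cd36, with log2 differences of −1.03 ± 0.24, 4.25 ± 0.28 and 1.12 ± 0.24, the last lost without the 4 libraries of mouse 3 (adjusted p = 0.07). Clec4n, the lectin Dectin-2, was the receptor higher than in each organ, at 81.5, 25.6 and 52 CPM in spleen, 33.4, 20.8 and 7.31 in liver and 13, 9.98 and 12.5 in marrow. It overlapped with liver, and its call there (adjusted p = 0.0157) was lost without the spleen library of mouse 1 or 3 or the 4 libraries of mouse 1 or 3 (adjusted p from 0.0549 to 0.0805). The endothelium list moved with these receptors in liver: 13 of its 14 genes were lower in spleen than in liver, and 9 were higher than in marrow. Kdr, the VEGF receptor of endothelium, measured 48.1, 27.7 and 35.4 CPM in spleen and 1432, 962 and 1435 in liver. The part of endothelial cells in the receptor differences was not tested.

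Of 30 lysosome genes, 21 were lower and 1 higher than in liver, 15 lower and 8 higher than in tumor, and 5 lower and 4 higher than in marrow. Among all tested genes, 28.3% were lower and 29.0% higher than in liver, 30.7% and 32.0% for tumor, and 14.3% and 18.5% for marrow. Ctsd, the aspartic protease cathepsin D, measured 413, 317 and 388 CPM in spleen, 1508, 1193 and 1121 in liver, 756, 478 and 848 in tumor and 475, 575 and 687 in marrow. All 9 other values lay above those of spleen for Ctsd, and the call against marrow (adjusted p = 0.0441) was lost without the spleen library of mouse 1, 2 or 3, the tumor library of mouse 1, the marrow library of mouse 2 or 3 or the 4 libraries of mouse 2 or 3 (adjusted p from 0.0582 to 0.182), and without the mouse as block (adjusted p = 0.0527). Lamp1, a protein of the lysosomal membrane, measured 234, 183 and 205 CPM in spleen and 686, 572 and 625 in liver, and passed against liver alone. Of 16 complement genes, 13 were lower and 2 higher than in liver, and 9 were higher than in tumor and 7 than in marrow. Cfb, complement factor B, measured 32.9, 22.1 and 34.7 CPM in spleen, 488, 1512 and 781 in liver, 5.24, 12.9 and 9.47 in tumor and 1.67, 4.37 and 6.93 in marrow. Liver was above spleen for Cfb and spleen above tumor and marrow, with log2 differences of −4.75 ± 0.46, 1.87 ± 0.42 and 3.00 ± 0.45.

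Inflammatory genes divided by organ. Of 21 chemokine and cytokine genes, 16 were higher and 3 lower than in marrow, 13 higher and 2 lower than in tumor, and 1 higher and 9 lower than in liver. In spleen NA cells, 17 of the 21 were also higher than in bulk spleen, which was not digested, and none was lower. The median log2 difference from bulk spleen was 2.82, against −0.05 for all genes tested. Summed CPM was 1092 to 2101 in spleen NA cells and 250 to 326 in bulk spleen, scaled over 24 libraries. Cxcl2, a neutrophil attractant, measured 314, 169 and 186 CPM in spleen, 244, 392 and 186 in liver, 258, 329 and 151 in tumor and 17.6, 29.2 and 23.9 in marrow. Spleen, liver and tumor overlapped for Cxcl2 and marrow lay below all of them, with a spleen to marrow difference of 3.25 ± 0.34. Of 17 genes of the type I interferon response, none was higher than in liver and 12 were lower, 2 were higher and 11 lower than in tumor, and 2 were lower than in marrow. Ifit2 and Oas2, both antiviral effectors, were the members lower than in each organ. Ifit2 measured 4.06, 4.14 and 3.99 CPM in spleen, 64.9, 65 and 63.4 in liver, 5.75, 8.16 and 6.02 in tumor and 9.98, 12.8 and 8.7 in marrow. Its call against tumor was lost without the 4 libraries of mouse 2 (adjusted p = 0.0513). Oas2 measured 1.29, 1.54 and 0.735 CPM in spleen, 7.88, 4.03 and 2.88 in liver, 5.15, 8.16 and 1.79 in tumor and 4.72, 3.42 and 3.38 in marrow. The call of Oas2 against marrow was lost without the spleen library of mouse 1 or the 4 libraries of mouse 1 or 3 (adjusted p from 0.0512 to 0.0827), and that against liver without the 4 libraries of mouse 1 (adjusted p = 0.0573). Enzymatic digestion itself is known to raise immediate early genes, and Fos measured 170.2, 137 and 206 CPM in spleen, 892, 1013 and 817 in liver, 535, 509.6 and 505 in tumor and 135, 151 and 137 in marrow. Of 17 genes of this dissociation response, 11 were lower than in liver, 7 lower and 6 higher than in tumor, and 13 higher than in marrow. The part of digestion in the organ differences was not tested.

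Red cell precursor genes were higher in spleen than in liver and tumor, and few passed against marrow. All 17 erythroid genes were higher than in liver and than in tumor, with medians of 5.63 and 8.04, while 2 were lower and none higher than in marrow, where the median was −1.08. Klf1, the erythroid master transcription factor, measured 21.2, 229 and 150.3 CPM in spleen, 1.89, 2.69 and 1.77 in liver, 0.552, 0.378 and 0.506 in tumor and 124, 226 and 248 in marrow. The spleen of mouse 1 lay below all marrow values, whereas those of mice 2 and 3 lay within them, and the difference from marrow was −0.88 ± 0.47 (adjusted p = 0.18). Without the spleen library of mouse 2 it was −1.50 (adjusted p = 0.0381). Cell division genes ran alongside: 18 of 18 were higher than in liver, 9 than in tumor and none than in marrow, where 8 were lower. Mki67, the proliferation marker Ki-67, measured 229, 1856 and 1028 CPM in spleen, 21.3, 37 and 27.7 in liver, 65.3, 46.9 and 118 in tumor and 1556, 1787 and 1436 in marrow. Hemoglobin genes took 1.59%, 8.56% and 5.85% of the counts in the spleen cells of mice 1, 2 and 3, against 8.50% to 12.5% in marrow. Counts of the alpha globin genes and of the beta globin genes may be split among near-identical copies, and only their sum is given.

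Granulocyte genes were lower than in marrow in nearly every case. Of 8 genes of early granules, 8 were higher than in liver, 8 than in tumor and 8 lower than in marrow, and of 15 genes of late granules and mature neutrophils, 12 were higher than in liver and 14 lower and 1 higher than in marrow. Mpo, the myeloperoxidase of early granules, measured 186, 94.4 and 101.8 CPM in spleen, 13.4, 41.8 and 9.3 in liver, 1.47, 0.756 and 2.21 in tumor and 2121, 2105 and 2160.0 in marrow. Its log2 difference was 2.61 ± 0.55 from liver and −4.07 ± 0.55 from marrow. S100a8, an alarmin of mature neutrophils, measured 674, 439 and 320.2 CPM in spleen and 4348, 4089 and 4308 in marrow. Of 13 genes of megakaryocytes and platelets, 11 were higher and 2 lower than in liver, 13 higher than in tumor, and none passed against marrow. Pf4, platelet factor 4, measured 109, 50.6 and 79.3 CPM in spleen, 13.1, 20.8 and 8.2 in liver and 53.8, 134 and 141 in marrow, with overlap of spleen and marrow.

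The 12 genes named by size among those lower than the mean of the 3 organs had low values in spleen. By the choice, all 3 spleen values of each lay below the 9 others. In order they were Cxcl14, Gna14, Tns4, Rtkn, Dsp, Megf6, Ugt8a, Mansc1, Hunk, Cxadr, Mgst1 and Ldhb, with log2 differences from −5.34 to −3.95, and each was called lower than in liver, tumor and marrow alike. Cxcl14, a chemokine of epithelia, had 6 counts in the 3 spleen libraries together and measured 3.88, 3.44 and 0.886 CPM in liver, 15, 11.2 and 16.9 in tumor and 1.61, 2.91 and 3.22 in marrow. Dsp, the desmosome protein desmoplakin, measured 1.53, 1.19 and 0.630 CPM in spleen, 20.6, 18.2 and 21.7 in liver, 194, 412 and 109.8 in tumor and 8.25, 7.07 and 5.32 in marrow. Mgst1, a membrane glutathione transferase, and Ldhb, the lactate dehydrogenase B chain, had the highest counts of the 12 in spleen. Mgst1 measured 16, 16.1 and 15.9 CPM in spleen, 277, 601 and 439 in liver, 602, 549 and 538 in tumor and 88.3, 73.4 and 76.8 in marrow. Ldhb measured 4.36, 3.3 and 4.78 CPM in spleen and 10.5, 8.82 and 8.62 in marrow. It was lower in every spleen library than in any other, which the choice of the 12 required. Of the 24 genes chosen by size, 22 lost their call when the 9 other libraries were set as 1 group, and Cr2 and Fam167a kept it, with all 24 log2 differences in the same direction.

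Genes of mammary epithelium were lower in spleen than in tumor, and hepatocyte genes were lower than in liver. Of 13 tested genes of mammary epithelium, 12 were lower than in tumor, 9 than in liver, and 3 were higher than in marrow. All 12 hepatocyte genes were lower than in liver, 1 was lower than in tumor and none passed against marrow. Of 6 lung epithelium genes, 5 were lower than in liver, 1 than in tumor and none passed against marrow. Alb, serum albumin, measured 9.21, 342 and 178 CPM in spleen, 10.03, 322 and 189.7 in tumor, 8.79, 157 and 128 in marrow and 13580.0, 48950.0 and 29730.0 in liver. Mouse 2 was highest and mouse 1 lowest for Alb in each of the 4 organs. Sftpc, surfactant protein C of lung epithelium, measured 43.8, 0.0702 and 0.0525 CPM in spleen, 25.1, 0.0729 and 0 in marrow and 198, 154 and 0.443 in liver. It was highest in mouse 1 in these 3 organs and near 0 in the spleen of mice 2 and 3. Whether RNA of other organs entered the spleen libraries was not tested.

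**Figure D4:**
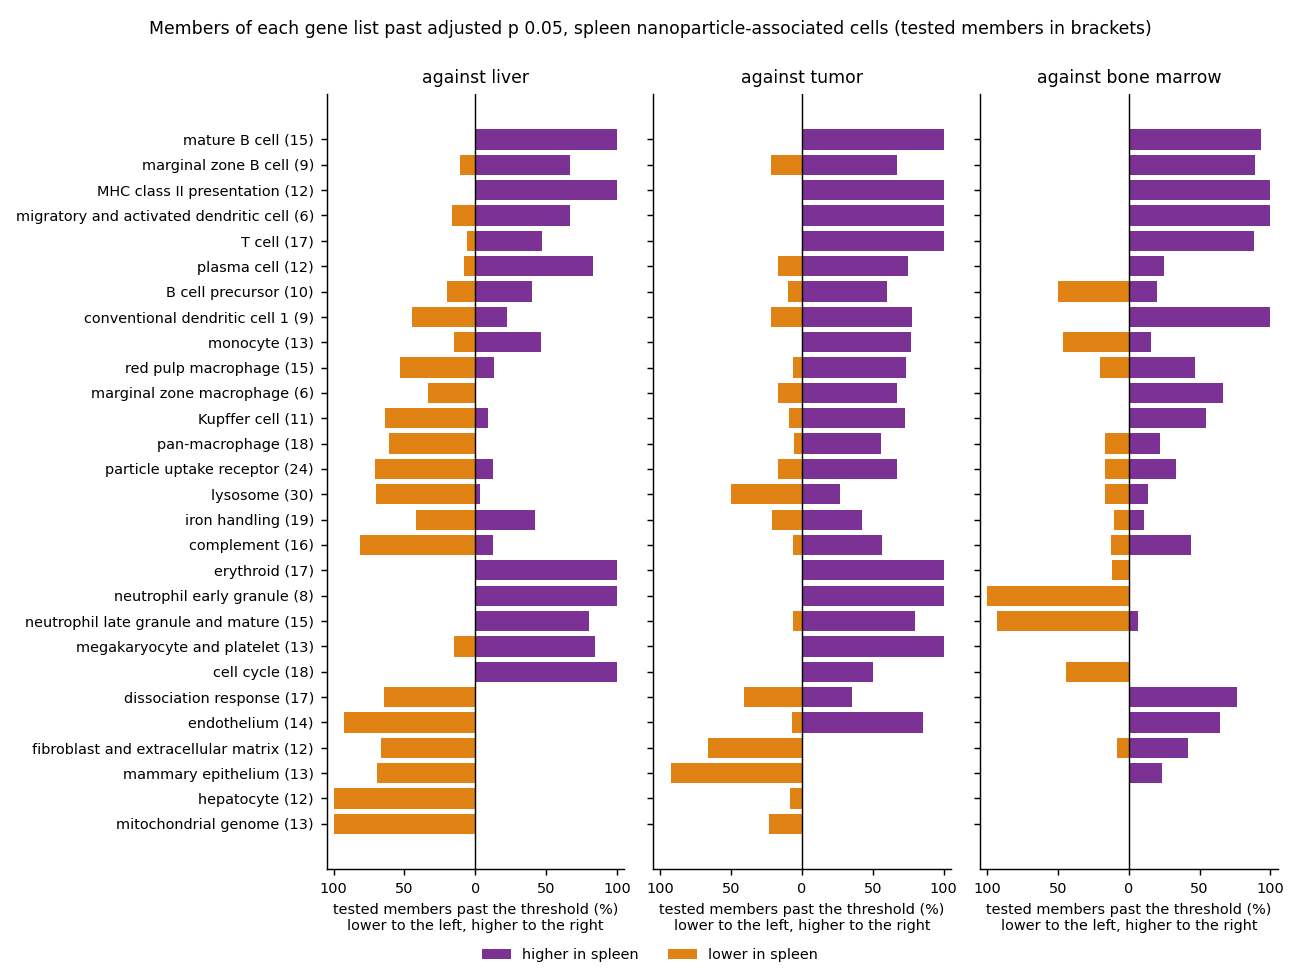
Share of tested members of each gene list past adjusted p 0.05 in spleen NA cells against liver, tumor and bone marrow, with higher members to the right and lower members to the left in percent, and the number tested in brackets. MHC class II genes reach 100% to the right in all 3 panels, erythroid genes in the first 2, and Kupffer cell genes point left against liver.

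The spleen libraries of the 3 mice differed widely in the red cell and cell division genes. The summed CPM of the 17 erythroid genes was 6.77 times as high in mouse 2 as in mouse 1, and that of the 18 cell division genes 5.46 times. In bulk spleen of the same mice, these ratios were 4.89 and 4.34, and in both kinds of library the order was mouse 2, mouse 3, mouse 1. Red pulp macrophage genes were lower in mouse 2, with a sum of 0.411 times that of mouse 1 in NA cells and 0.804 times in bulk spleen. Mature B cell genes gave 0.619 and 0.719 times, with mouse 1 highest in both. T cell genes gave 1.14 and 1.57 times, with mouse 3 highest in both. The NA library and the bulk library of a spleen came from separate parts of the organ, and so these orders were measured in separate libraries of the same mice, 3 of them, with no test. Hepatocyte genes gave 10.1 times in NA cells and 1.47 times in bulk spleen, and lung epithelium genes 0.0115 and 1.62 times, so these did not run in parallel.

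**Figure D5:**
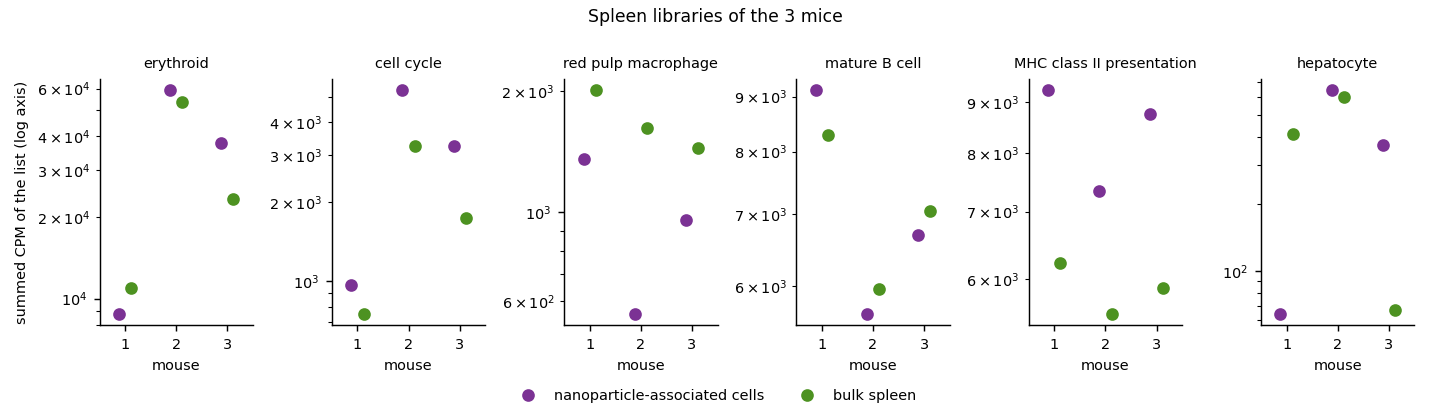
Summed CPM of 6 gene lists on a log axis in the NA cells and the bulk tissue of the spleen of each mouse, scaled over 24 libraries, with each point 1 library. Erythroid and cell division genes are lowest in mouse 1 and highest in mouse 2 in both, while red pulp macrophage genes are lowest in mouse 2 in NA cells and not in bulk tissue.

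Most genes that set spleen NA cells apart also differed between whole organs. In the 12 bulk libraries of the same organs and mice, 4585 of 17081 tested genes (26.8%) were higher and 3973 (23.3%) lower in spleen than in the mean of liver, tumor and marrow. Of the 913 genes higher in spleen NA cells than in each organ that were also tested in bulk, 687 (75.2%) were higher and 18 lower in bulk spleen, and these 687 were 15.0% of the genes higher in bulk. Of the 538 lower genes, 407 (75.7%) were lower and 5 higher in bulk, which was 10.2% of the genes lower in bulk. The 15.0% and 10.2% set a stricter call, against each organ, beside a call against the mean of the organs. With the mean contrast in both, 4512 genes higher in NA cells were tested in bulk, and 2727 (60.4%) were higher and 138 lower there. Of 3893 such lower genes, 2410 (61.9%) were lower and 110 higher in bulk. Mature B cell genes were higher in bulk spleen in 15 of 15, T cell genes in 17 of 17 and class II genes in 12 of 12. The bulk medians were 6.22, 3.96 and 3.32.

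The difference itself between the NA contrast and the bulk contrast was tested over the 24 libraries. It passed for 1729 of 17281 genes (10%) in the positive direction and for 1629 (9.43%) in the negative direction. Positive means that spleen lay further above the other organs, or less far below them, in NA cells than in bulk tissue. Without mouse 3 these were 392 and 342, without mouse 1 they were 861 and 634, and without mouse 2 they were 843 and 646. Red pulp macrophage genes passed in the negative direction in 7 of 15 and in the positive in none, with a median of −0.82, against −0.02 for all genes tested. Slc40a1 differed from the mean of the other organs by −0.71 in NA cells and by 1.33 in bulk tissue, and the difference between both was −2.02 ± 0.27 (adjusted p = 8.61e-05). Vcam1 passed at −1.49 ± 0.33, lost without the 8 libraries of mouse 3 (adjusted p = 0.0979). Hmox1 passed at −1.37 ± 0.35, lost without the 8 libraries of mouse 3 (adjusted p = 0.139). Spic did not pass (−0.10 ± 0.58, adjusted p = 0.967). Among mature B cell genes 2 of 15 passed in the negative direction. They were Ms4a1, the CD20 antigen, at −1.71 ± 0.44, lost without the 8 libraries of mouse 1 or 3 (adjusted p from 0.0618 to 0.141), and Fcer2a at −1.76 ± 0.41, lost without the 8 libraries of mouse 1 or 3 (adjusted p from 0.0576 to 0.0972). Cd86 passed in the positive direction at 1.39 ± 0.22 (adjusted p = 0.000406). Of other lists, 5 of 13 megakaryocyte genes and 3 of 14 stromal genes passed in the negative direction, while 6 of 19 iron genes passed in the positive and 2 in the negative one. All 17 genes of the dissociation response were higher in spleen NA cells than in bulk spleen, which was not digested, with a median of 3.83 on the log2 scale and summed levels of 6144 to 14000 against 1347 to 1615 CPM. Over all 17281 genes tested, the median of that comparison was −0.05, and 8248 genes lay above 0, whether or not they passed. For the difference of both contrasts, 3 of the 17 passed in each direction. The part of digestion in these differences was not tested.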

How the data were processed

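Total RNA of the NA cells and bulk tissue was sequenced on an Illumina instrument. Per the submitters' processing notes, the tools were FastQC 0.11.9, cutadapt 3.5, STAR 2.7.9a and RSEM 1.3.1 with mm10. The authors deposited 1 table of RSEM expected counts for 55487 genes. Between 4.64% and 7.09% of the NA libraries' values were not whole, and all were rounded. The use of strand in counting is not given in the sources used here, nor is the annotation release. Names were matched for 55141 gene identifiers, positions are from GENCODE M21 (GRCm38, mm10) and promoters from RefSeq.

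Counts of the 12 NA libraries were fitted together in edgeR 4.0.16 (R 4.3.3) with organ as group and the mouse as block, TMM scaling, a minimum count of 10 in filterByExpr, the quasi-likelihood test and Benjamini-Hochberg adjustment over the 16655 genes tested, with a threshold of 0.05. Contrasts set spleen against each organ and against their equally weighted mean. The 12 bulk libraries (17081 genes) and all 24 libraries (17281 genes, for the difference of both contrasts) were fitted likewise. Values after ± are approximate standard errors of log2 differences unless called SD. Each was worked back from the test, as the absolute log2 difference over the square root of its F statistic. Such a value can be unreliable for a difference near 0. The code was tested on simulated data. Replicates are separate mice, and the lowest chi-square per degree of freedom between replicate libraries was 8.43, so none were duplicates.

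The pairing comes from the labels, which give the same animal to the organs of a number. Deviations from the group means correlated with a median of 0.11 in 18 pairs of the same mouse (11 over 0.1). In 36 pairs of different mice the median was −0.07, and 2 exceeded 0.1. The deviations of an organ's 3 libraries sum to 0, so higher correlations within mice bring lower ones between mice. Both sets of pairs are thus not independent, and the pairing rests on the labels.

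Named were, per direction, the 12 genes with the largest log2 difference from the mean of the organs whose 3 spleen values lay outside the 9 others (6 per direction for the difference of NA and bulk contrasts) and whose average log2 CPM reached 2, and set anchor genes of 43 lists. Named after their values were seen were Ighm, Clec4n, Ltbr, Ifit2, Oas2, Cd86, H2-Ob, H2-DMa and Foxp3, and for the NA and bulk difference Spic, Slc40a1, Vcam1, Hmox1, Ms4a1, Fcer2a and Cd86. The members and lists were chosen with earlier results of these data known. Alternatives were RLE scaling, DESeq2 1.42.0, limma 3.58.1 (voom), no low-count filter, no block, no mitochondrial genes, 2 groups, and each organ, library or mouse left out. The lymph node NA library was not used. A few genes covered by these rules are not reported here by name.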

Additional observations from a re-analysis of the deposited data

Results flagged for a closer look

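The spleen's difference from the mean of liver, tumor and marrow was not the same in NA cells and in bulk tissue for 1729 genes in the positive and 1629 genes in the negative direction (edgeR's quasi-likelihood test of the difference, adjusted p under 0.05). The genes below are the 6 with the largest such difference in each direction, as log2 values of the NA contrast minus the bulk contrast. Such a difference can come from the spleen or from any of the other organs, and mean CPM of other organs are given for 8 of the 12 genes. All 17 genes of the dissociation response were also higher in spleen NA cells than in bulk spleen, where the median log2 difference of all 17281 tested genes was −0.05. The part of digestion was not tested.

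Trib3, a pseudokinase of the integrated stress response, differed by 4.29 (adjusted p = 4.36e-05). It measured 32.4 ± 9.5 CPM (SD, n = 3) in spleen NA cells and 0.565 ± 0.065 in bulk spleen. Chac1, a glutathione-degrading enzyme of the same response, differed by 3.89 (adjusted p = 0.00183), at 33.6 ± 17 CPM (SD, n = 3) in spleen NA cells and 0.303 ± 0.037 in bulk spleen. Marrow showed the same order for both, with 26.5 CPM in NA cells and 0.952 in bulk for Trib3 and 30.4 and 1.72 for Chac1. Trib3 measured 4.14 CPM in NA cells and 6.84 in bulk of liver, and 39.9 and 25.2 of tumor. Chac1 measured 4.74 and 1.63 CPM in liver and 17.3 and 2.12 in tumor. Pde3b, a phosphodiesterase, differed by 4.41 (adjusted p = 0.000437), at 154 ± 25 CPM (SD, n = 3) in spleen NA cells and 26.7 ± 4.2 in bulk spleen. The spleen's own difference between NA cells and bulk was 2.55 for Pde3b. In the other organs Pde3b measured 35.01 CPM in NA cells and 122 in bulk of liver, 1.75 and 36.6 of tumor, and 18.4 and 16.0 of marrow. The bulk tumor mean rested on mouse 1, at 94.7 CPM against 8.36 and 6.83. Mmp19, a matrix metalloproteinase, differed by 4.12 (adjusted p = 7.77e-05), at 71.3 ± 45 CPM (SD, n = 3) in spleen NA cells and 5.09 ± 1.2 in bulk spleen. It measured 42.5 CPM in NA cells and 154 in bulk of liver, 7.02 and 11.3 of tumor, and 11.4 and 4.99 of marrow.

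Megf6 differed by −3.77 (adjusted p = 0.000402) and Cyp4b1, a cytochrome P450, by −3.62 (adjusted p = 0.0003). In both, spleen NA cells were lower than bulk spleen, at 0.702 against 3.09 CPM for Megf6 and 3.52 against 18.2 CPM for Cyp4b1. The liver means lay in the opposite order, at 16.8 CPM in NA cells against 0.909 in bulk for Megf6 and 382 against 19.4 for Cyp4b1. Megf6 measured 112 and 67.1 CPM in tumor and 2.20 and 1.85 in marrow, and Cyp4b1 5.09 and 10.6 in tumor and 2.68 and 2.35 in marrow.

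The other 6 lost the call with at least 1 mouse left out: Rdh9 without the 8 libraries of mouse 1 or 3 (adjusted p from 0.119 to 0.505), Clstn3 without the 8 libraries of mouse 2 or 3 (adjusted p from 0.144 to 0.155), Chtf8 without the 8 libraries of mouse 1 or 2 (adjusted p from 0.102 to 0.173), Rasef without the 8 libraries of mouse 1, 2 or 3 (adjusted p from 0.0715 to 1), Tns4 without the 8 libraries of mouse 1 or 3 (adjusted p from 0.0826 to 0.187) and Cilp without the 8 libraries of mouse 1, 2 or 3 (adjusted p from 0.0587 to 0.168). Rdh9 (4.49, adjusted p = 0.0329) and Clstn3 (4.29, adjusted p = 0.0282) had low spleen values, of 0.224 and 1.61 CPM in NA cells. Rdh9 measured 9.55 CPM in NA cells and 80.7 in bulk of liver. Clstn3 measured 0.083 CPM in NA cells and 24.2 in bulk of tumor, where mouse 1 held 70.2 against 2.02 and 0.329. Chtf8 (−4.59, adjusted p = 0.0245), Rasef (−3.96, adjusted p = 0.0371), Tns4 (−3.80, adjusted p = 0.0189) and Cilp (−3.79, adjusted p = 0.0212) were in the negative direction. Chtf8 and Tns4 also lost the call without the mouse as block (adjusted p = 0.131 and 0.0613).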

How the results depend on the processing

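With the 9 other libraries as 1 group, the contrast with the mean of the organs called 164 genes higher and 46 lower. Leaving out 1 library, or the 4 NA libraries of a mouse (chosen after seeing the data), gave 2749 to 4784 higher and 2868 to 4066 lower than the mean, 3092 to 5033 and 3813 to 4889 against liver, 3740 to 5344 and 4114 to 5269 against tumor, 1323 to 3360 and 1049 to 2807 against marrow, and 348 to 1033 and 236 to 619 against each organ. Without mouse 1, 1749 genes were higher and 1152 lower than in marrow, and 488 and 250 than in each organ. Single libraries also moved these counts: genes higher than in marrow to 2044 (without marrow of mouse 3), genes lower to 1495, 1436 and 1545 (without spleen of mouse 1, spleen of mouse 3 and marrow of mouse 2), and genes higher and lower than in each organ to 607 and 320 (spleen of mouse 3), with 336 and 339 lower without spleen of mouse 1 and marrow of mouse 2. The lowest counts were without mouse 3, except for the genes lower than liver and than tumor, which were fewest without mouse 1. Without a mouse, bulk tissue gave 3207 to 3835 higher and 2749 to 3212 lower, and the difference of NA and bulk contrasts 392 to 861 positive and 342 to 646 negative, with 861 and 634 without mouse 1 and 843 and 646 without mouse 2. Without the replicate block, 977 genes were higher and 564 lower than in each organ, 892 and 508 of them shared with the 942 and 538. Shared with RLE scaling were 864 and 538, with DESeq2 874 and 538, with voom 938 and 516. Of 502 values of named genes, 352 kept their side of the threshold in every alternative. Those 352 can include values that changed sign without passing. A sign change under the threshold in both settings was counted as no change, and there were 171 of them over all values and alternatives. Of values that passed no threshold with all libraries, 4 turned sign and passed: Fcer1a against liver without the liver library of mouse 2 (6.05, where the other single libraries left out gave values down to −1.11) or all of mouse 2 (6.19), and without mouse 2 Ccl3 against liver (0.66) and Nqo1 against tumor (−0.96). The causes were not tested. Values under 3 counts in a library limit the fold changes of lymphoid genes against tumor.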
